A study of Mus musculus with 24 samples.

Results

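The RNA levels of 6 CXC chemokines, Cxcl1, Cxcl2, Cxcl5, Cxcl12, Cxcl14 and Cxcl16, were followed in sorted mouse colon fibroblasts over 24 microarrays of 3 genotypes. Each gene was chosen by its exact symbol and was read by 1 probe set, so the 6 genes stand among 30748 named genes on the array. The arrays were 9 of IhhKO_ApcKO, 8 of ApcKO and 7 of WT fibroblasts. All 3 groups came from mice with a Villin promoter-driven, inducible Cre (Cre-ERT2) and a ZsGreen allele. The IhhKO_ApcKO mice had lost both Indian hedgehog (Ihh) and Apc, the ApcKO mice had lost Apc with Ihh intact (IhhWT-ApcKO), and WT mice kept both genes (IhhWT-ApcWT). Villin drives expression in the intestinal epithelium, so the fibroblasts themselves were not the cells in which the Cre acts. Ages and the inducing agent were not used here. Cells were sorted as negative for Epcam, CD45 and CD31 and positive for gp38 (podoplanin). Nothing in the labels says whether replicates are separate mice, so the p-values speak only for the spread among these arrays, part of which may be technical.

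CXC chemokines are small secreted proteins that steer leukocytes and other cells along concentration gradients through G protein-coupled receptors. Cxcl1, Cxcl2 and Cxcl5 attract neutrophils through Cxcr2 and are made by stromal cells exposed to interleukin-1, interleukin-17 or tumour necrosis factor, largely through the transcription factor NF-kB. Cxcl12 is made constantly by stromal cells, signals through Cxcr4 and is scavenged by Ackr3. Cxcl14 is a constantly expressed chemokine of epithelia and stroma whose receptor is debated, and Cxcl16 is anchored in the membrane, binds Cxcr6 and is shed by Adam10 and Adam17.

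Cxcl1, Cxcl2 and Cxcl5 lie on chromosome 5 within a run of related genes. In RefSeq GRCm38.p6 the protein-coding order there was Cxcl5, Ppbp, Pf4, Cxcl3, Cxcl15, Cxcl1 and Cxcl2. Cxcl12 lies on chromosome 6, Cxcl14 on chromosome 13 and Cxcl16 on chromosome 11. Promoter sequence from RefSeq was found for 4 of the 6 genes, namely Cxcl1, Cxcl2, Cxcl12 and Cxcl14. The 120 bases before the start of Cxcl1 (GRCm38.p6 chr5:90891125-90891244, plus strand) and of Cxcl2 (chr5:90903779-90903898, plus strand) are shown because these neighbours were the pair of chemokines with the highest correlation across arrays. Capitals mark matches to a loose NF-kB (kappa B) motif, GGG and CC separated by any 5 bases, on either strand, with overlapping matches run together.
Cxcl1: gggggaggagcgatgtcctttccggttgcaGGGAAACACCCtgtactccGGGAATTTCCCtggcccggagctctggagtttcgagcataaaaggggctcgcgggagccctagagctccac
Cxcl2: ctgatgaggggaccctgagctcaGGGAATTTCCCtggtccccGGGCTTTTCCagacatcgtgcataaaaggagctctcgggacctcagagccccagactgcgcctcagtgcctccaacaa

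Counted from the base before the start as -1, the capitals span -90 to -80 and -71 to -61 in Cxcl1. In Cxcl2 they span -97 to -87 and -78 to -69. The loose motif is common: 45.8% of 32851 promoters held it in the 250 bases searched before the start, and Cxcl12 had 1 match. A narrower form, with TT as the third and the fourth of the bases between, was found in 4.11% of promoters on either strand. Cxcl1 and Cxcl2 each had 2 matches to the narrow form, while the windows of Cxcl12 and Cxcl14 had none. A binding motif of the Hedgehog transcription factor Gli, TGGGTGGTC, occurred in 0.225% of promoters and in none of these 4. Such matches describe letters and are not binding sites.

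Values are RMA log2 values, on which a difference of 1 is a doubling of the signal, and levels of different genes are not compared because their probes differ. Fibroblast markers (7 of 8 measured) averaged 11.07 in IhhKO_ApcKO, 11.13 in ApcKO and 11.17 in WT arrays. Leukocyte markers (11 of 12 measured) averaged 5.40, 5.33 and 5.31 in the same order. The pan-leukocyte gene Ptprc averaged 2.99, 2.92 and 2.94, within the 2.68 to 3.15 spanned by the array medians of antigenomic background probe sets. Ptprc was the dimmest of the list. Cd68 of the same list averaged 9.07, 9.15 and 9.08, and Lyz2 and Tyrobp read 6.82 and 6.65 on their highest arrays. Epithelial markers (14 of 14 measured) were uneven: their mean ran from 5.58 to 8.52 over IhhKO_ApcKO arrays, 6.43 to 8.50 over ApcKO arrays and 5.94 to 8.27 over WT arrays. Group averages were 7.23, 7.60 and 7.06 in that order. All 14 were lower in IhhKO_ApcKO than in ApcKO arrays (median -0.26). In ApcKO against WT arrays 13 were higher and 1 lower (median 0.56), and in IhhKO_ApcKO against WT 10 were higher and 4 lower. None of these markers was called. The Hedgehog target genes Gli1, Ptch1 and Hhip fell in IhhKO_ApcKO arrays against both other genotypes, Gli1 by 1.31 on the log2 scale against ApcKO (adjusted p = 4.0e-06, limma). One array went against this: the array labelled IhhKO_ApcKO B9 had Gli1 at 7.99, whereas the other IhhKO_ApcKO arrays lay between 6.64 and 7.05. That array was also the highest of its group for Cxcl1, Cxcl2, Cxcl5 and Cxcl16, so values without it are given where it matters.

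None of the 6 chemokines was called by the test across all genes (limma, Benjamini-Hochberg adjusted p under 0.05), which does not show that they were unchanged. So few genes were called in all that 0 of 6 does not set the chemokines apart. Against ApcKO, IhhKO_ApcKO called 0 of 6 chemokines, where 0.0455% of all genes were called (14 of 30748). ApcKO against WT called 0 of 6 and 0% of all genes, although 1356 genes (4.41%) had an unadjusted p under 0.05. IhhKO_ApcKO against WT called 0 of 6, where 0.0813% of all genes were called (25 of 30748). The 95% intervals were widest for Cxcl2, whose difference between IhhKO_ApcKO and ApcKO had an upper bound of 0.63 in this model and an estimate of 1.14 (SE 0.35, limma adjusted p = 0.27) with the code letter of the arrays as a block, a fit that rests on A9 and B9. Fewer cells making a chemokine and less of its RNA per cell cannot be told apart in such bulk samples.

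**Figure D1:**
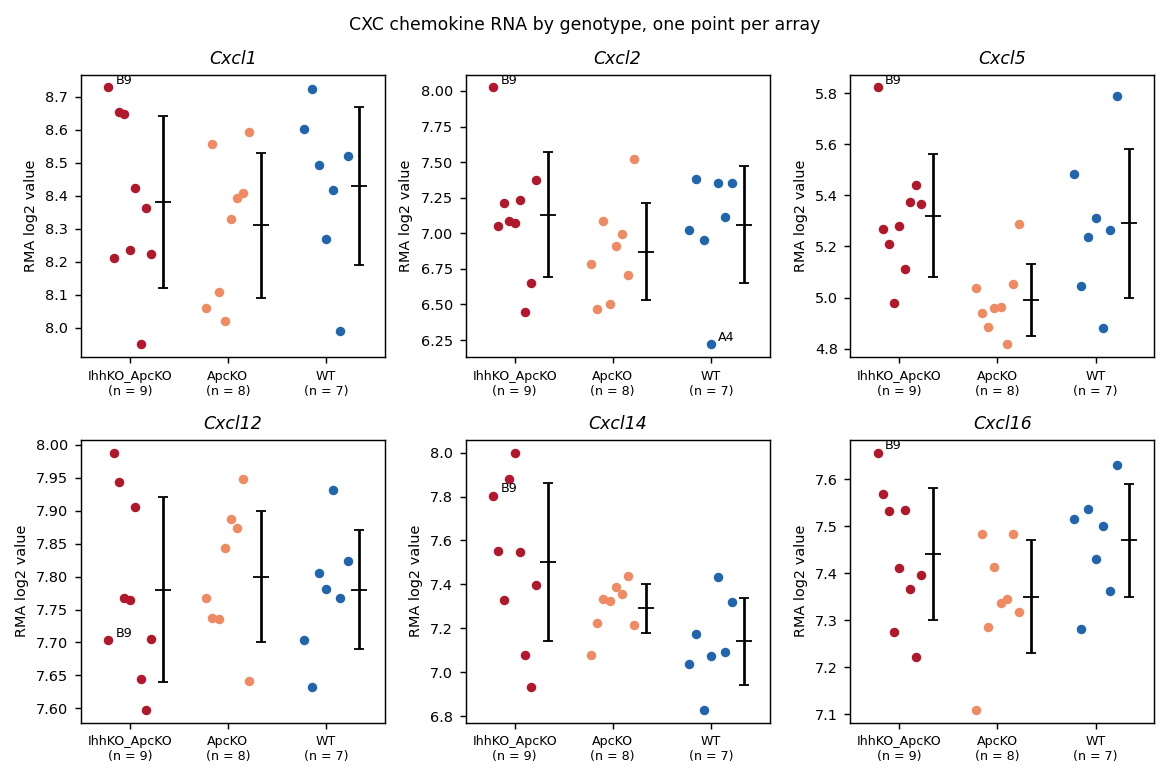
Each panel gives the RMA log2 value of 1 chemokine on every array (points) for IhhKO_ApcKO (n = 9), ApcKO (n = 8) and WT (n = 7), with the group mean and SD as a bar at the right of the points; axes do not start at 0. The groups overlap in every panel, ApcKO arrays lie low for Cxcl5, and IhhKO_ApcKO arrays spread from 6.93 to 8.0 for Cxcl14.

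Of the neutrophil-attracting chemokines, Cxcl5 differed most between genotypes. Its lowest, median and highest log2 values were 4.98, 5.28 and 5.82 in IhhKO_ApcKO arrays, 4.82, 4.96 and 5.29 in ApcKO arrays and 4.88, 5.27 and 5.79 in WT arrays. The ApcKO arrays were thus low and close together, while IhhKO_ApcKO and WT arrays covered nearly the same range. Cxcl5 averaged 5.32 ± 0.24 in IhhKO_ApcKO and 4.99 ± 0.14 in ApcKO arrays (SD, n = 9 and 8), a difference of 0.32 (SE 0.11, 95% interval 0.11 to 0.54), or 1.25-fold. It was above the ApcKO mean on 8 of 9 IhhKO_ApcKO arrays, 4 of which exceeded every ApcKO array. The adjusted p was 0.54 over all genes, and an exact two-sided permutation test of this gene alone gave p = 0.00313, or 0.0563 after adjustment over the 18 tests of 6 chemokines in 3 comparisons. Without B9 the difference was 0.26 (limma adjusted p = 0.633).

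ApcKO arrays were also lower in Cxcl5 than WT arrays, by -0.29 (SE 0.11, 95% interval -0.53 to -0.06, limma adjusted p = 0.97), with 7 of 8 ApcKO arrays below the WT mean. The exact permutation p was 0.0205, or 0.185 adjusted over the 18 tests. IhhKO_ApcKO and WT arrays differed by 0.03 (95% interval -0.20 to 0.25). Both Cxcl5 differences share the ApcKO arrays and are not independent of each other. Cxcl5 lay close to the array's own background: it exceeded the brightest of 23 antigenomic probe sets on 1 of 24 arrays, whereas the other 5 chemokines did so on 24 of 24. The epithelial marker mean had r = 0.20 with Cxcl5 over 24 arrays (permutation test, adjusted over 18 values p = 0.518), and 0.13 without B9. Within genotypes r was 0.71 in IhhKO_ApcKO (exact permutation p = 0.0282, unadjusted, n = 9), 0.59 in ApcKO and 0.03 in WT arrays. With the epithelial mean as a covariate, the Cxcl5 difference between IhhKO_ApcKO and ApcKO was 0.37 (limma adjusted p = 0.276), against 0.32 without it.

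Cxcl2, the second neutrophil attractant, was the most variable of the 6 genes. Its lowest, median and highest values were 6.45, 7.08 and 8.03 in IhhKO_ApcKO, 6.47, 6.85 and 7.52 in ApcKO and 6.22, 7.11 and 7.38 in WT arrays. A single array set an extreme in each group: B9 at 8.03 at the top of IhhKO_ApcKO, B8 at 7.52 at the top of ApcKO and A4 at 6.22 at the bottom of WT. The residual SD of Cxcl2 was 0.40, at percentile 97.4 of all genes. IhhKO_ApcKO exceeded ApcKO by 0.26 (SE 0.18, limma adjusted p = 0.9999), and by 0.14 without B9. ApcKO stood at -0.18 against WT (SE 0.19), at -0.32 without A4 and at -0.28 without B8. IhhKO_ApcKO stood at 0.07 against WT (SE 0.19), a value that turned to -0.04 without B9 and to -0.07 without A4. The order of means, IhhKO_ApcKO at 7.13, ApcKO at 6.87 and WT at 7.06, was smaller than the spread within each group.

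Cxcl1, the closest relative of Cxcl2 among these genes, showed no separation. It ran from 7.95 through a median of 8.36 to 8.73 in IhhKO_ApcKO arrays, from 8.02 through 8.36 to 8.59 in ApcKO arrays, and from 7.99 through 8.49 to 8.72 in WT arrays. The 3 ranges nearly coincided. Differences were 0.07 for IhhKO_ApcKO minus ApcKO (95% interval -0.15 to 0.30), -0.12 for ApcKO minus WT (-0.36 to 0.12) and -0.05 for IhhKO_ApcKO minus WT (-0.28 to 0.19).

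Cxcl14 had the largest difference of the 6 between IhhKO_ApcKO and WT arrays. Its lowest, median and highest values were 6.93, 7.55 and 8.0 in IhhKO_ApcKO, 7.08, 7.33 and 7.44 in ApcKO and 6.83, 7.09 and 7.43 in WT arrays. The group means were ordered IhhKO_ApcKO at 7.50 ± 0.36, ApcKO at 7.29 ± 0.11 and WT at 7.14 ± 0.20 (SD). IhhKO_ApcKO minus WT was 0.36 (SE 0.12, 95% interval 0.12 to 0.61), or 1.29-fold, with limma adjusted p = 0.357 over all genes. The exact permutation p was 0.0323, or 0.194 adjusted over the 18 tests. Of the 9 IhhKO_ApcKO arrays, 7 were above the WT mean and 5 above every WT array, while 0 lay below every WT array. Leaving out B9 gave 0.33 (limma adjusted p = 0.432), so the difference did not rest on that array.

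The neighbours in that order were not separated. IhhKO_ApcKO minus ApcKO was 0.21 (95% interval -0.03 to 0.45), with 5 of 9 arrays above every ApcKO array and 2 below every one. ApcKO minus WT was 0.16 (95% interval -0.10 to 0.41), with 7 of 8 ApcKO arrays above the WT mean. Cxcl14 was spread widely in IhhKO_ApcKO fibroblasts, where C3, C4 and B9 read 7.88, 8.0 and 7.80 and C6 and C7 read 7.08 and 6.93. Its residual SD of 0.25 lay at percentile 90.3 of all genes.

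Cxcl12 was the steadiest of the 6. It ran from 7.60 through 7.76 to 7.99 in IhhKO_ApcKO, from 7.64 through 7.81 to 7.95 in ApcKO and from 7.63 through 7.78 to 7.93 in WT arrays. All 3 genotype means lay between 7.78 and 7.80. Its differences were -0.02 (95% interval -0.14 to 0.09) for IhhKO_ApcKO minus ApcKO, 0.03 (-0.10 to 0.15) for ApcKO minus WT, and 0.002 (-0.12 to 0.13) for IhhKO_ApcKO minus WT. For IhhKO_ApcKO minus WT the Cxcl12 interval ended at 0.126 and that of Cxcl14 began at 0.117, so they overlapped slightly. A difference between these genes was not tested. The residual SD of 0.11 was at percentile 22.4 of all genes.

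Cxcl16, the membrane-anchored member, was nearly as steady, with a residual SD of 0.13 at percentile 33.6. Values ran from 7.22 through 7.41 to 7.66 in IhhKO_ApcKO, from 7.11 through 7.34 to 7.48 in ApcKO and from 7.28 through 7.50 to 7.63 in WT arrays. ApcKO arrays were lowest on average, at 7.35 ± 0.12 against 7.47 ± 0.12 in WT (difference -0.12, 95% interval -0.26 to 0.02). IhhKO_ApcKO stood 0.09 above ApcKO (-0.04 to 0.22) and at -0.03 against WT (-0.16 to 0.11).

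**Figure D2:**
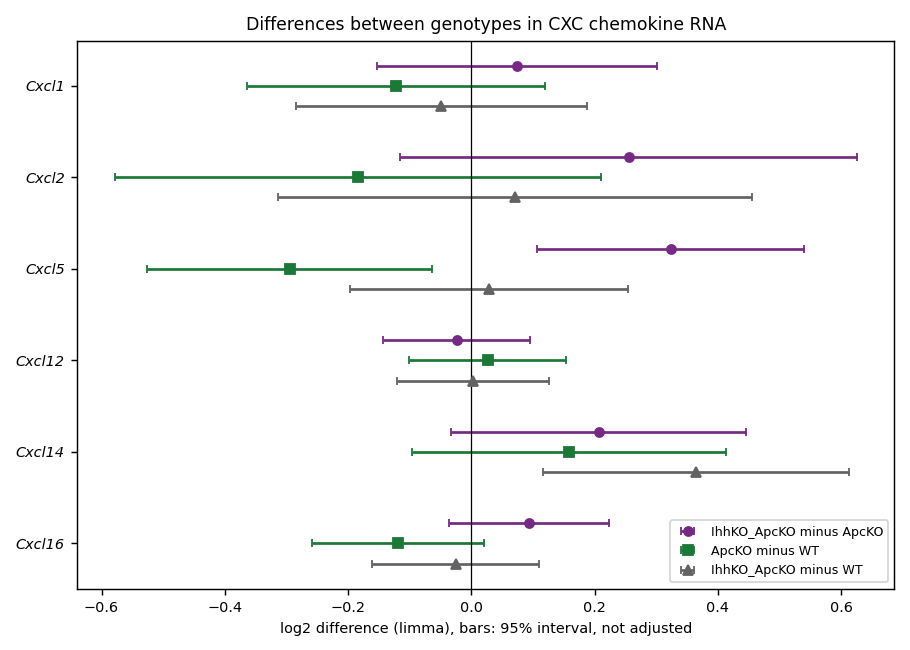
Each point is the log2 difference between genotypes in 1 chemokine from the model of all 24 arrays, with its 95% interval (not adjusted): IhhKO_ApcKO minus ApcKO (circles), ApcKO minus WT (squares) and IhhKO_ApcKO minus WT (triangles). Of 18 intervals, those of Cxcl5 in the first 2 comparisons and of Cxcl14 in the last leave out 0, and none of these passed adjustment over all genes.

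Over the 6 genes the median difference was 0.15 for IhhKO_ApcKO minus ApcKO, against 0.01 over all genes, with 5 of 6 higher in IhhKO_ApcKO, as were 17414 of 30748 genes in all. For ApcKO minus WT the median was -0.12, against -0.02 over all genes, with 4 of 6 lower, as were 18648 of all genes. For IhhKO_ApcKO minus WT it was 0.02 against -0.01. The first pair of comparisons share the ApcKO arrays, so a low ApcKO group enters both with opposite sign.

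From array to array, Pearson's r between the chemokines ran from -0.34 to 0.50. None of the 15 pairs passed a permutation test of Pearson's r adjusted over the pairs, which does not show that they vary independently. The highest was Cxcl1 with Cxcl2 (r = 0.50, permutation p = 0.0122, adjusted p = 0.145; rho = 0.47, adjusted p = 0.163; n = 24). It was 0.67 within IhhKO_ApcKO, 0.31 within ApcKO and 0.37 within WT arrays, 0.49 without the 2 arrays farthest in Cxcl1, and 0.41 without B9. Cxcl5, on the same stretch of chromosome 5, had r = 0.19 with Cxcl1 and 0.34 with Cxcl2, the second value falling to 0.10 without B9. Cxcl5 with Cxcl16 reached 0.46 but was 0.15 without the arrays A8 and B9. Cxcl2 with Cxcl14 had r = 0.42 (permutation p = 0.0388, adjusted p = 0.145), and 0.30 without B9. Cxcl12 with Cxcl16 (r = 0.44, adjusted p = 0.145) was positive within each genotype, at 0.59, 0.35 and 0.59 for IhhKO_ApcKO, ApcKO and WT.

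**Figure D3:**
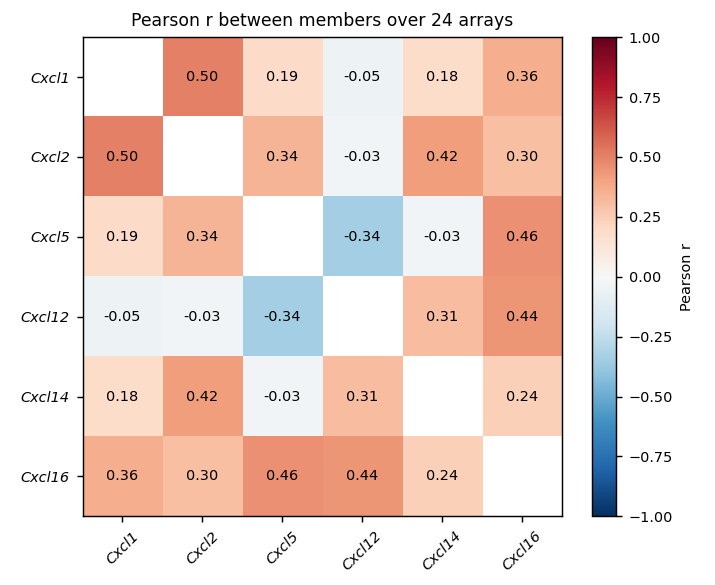
Pearson's r between the 6 chemokines over 24 arrays, 1 square per pair, on a colour scale from -1 to 1. The pair Cxcl1 and Cxcl2 is highest at 0.50, Cxcl5 and Cxcl12 lowest at -0.34, and no pair passed adjustment over the 15 pairs.

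Among 11453 protein-coding genes at or above the median gene, those most like each chemokine over the 24 arrays were found by Pearson's r, given here as descriptions without a test. Cxcl1 was most like Ccl2, a monocyte-attracting chemokine (r = 0.77), Tfpi2, a protease inhibitor (0.77), and Apobr (0.73). The genes nearest Cxcl2 were Tnfaip3, an inhibitor of NF-kB signalling (0.73), Ccl2 (0.67) and Panx1, a membrane channel (0.61), and these were 0.66, 0.59 and 0.44 without B9. Ccl2 therefore stood among the top 3 for both neighbours. Cxcl5 was nearest to Saa3, an acute-phase protein (0.85, and 0.79 without B9), then Sec61b (0.75) and Esd (0.75). Saa3 itself averaged 7.61 in IhhKO_ApcKO, 6.57 in ApcKO and 7.28 in WT arrays, and its difference of 1.04 between IhhKO_ApcKO and ApcKO did not pass (limma adjusted p = 0.616).

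Cxcl12, Cxcl14 and Cxcl16 had other companions. Cxcl12 followed Robo2, a guidance receptor (r = 0.81), Epas1, a hypoxia-inducible factor (0.80), and Man2a2, a mannosidase of the Golgi (0.79). Cxcl14 was nearest to Runx1, a transcription factor (0.73), Ttyh1 (0.73) and Ctsc, a lysosomal protease (0.71). Ctsc was 8.20 on average in IhhKO_ApcKO and 7.85 in ApcKO arrays (difference 0.34, limma adjusted p = 0.308). Cxcl16 was nearest to Rab2b (0.75), Cp, the copper carrier ceruloplasmin (0.75), and Commd6 (0.71).

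Cxcl14 was set against markers of fibroblast subsets, with results that differed by coefficient, genotype and marker. Against the mean of 7 measured CD34-positive fibroblast markers, of 9 listed, it had r = -0.56 over 24 arrays (permutation p = 0.00467, adjusted over 18 values p = 0.0841) and rho = -0.63 (adjusted p = 0.0200), and -0.53 without the 2 farthest arrays. The relation was strong within IhhKO_ApcKO (r = -0.72) and WT (-0.97) but not within ApcKO arrays (0.31). Single markers differed: Pi16, Dpp4 and Cd81 had r = -0.57, -0.50 and -0.35 with Cxcl14. Cd34 itself had -0.06 (0.28, 0.14 and -0.60 within IhhKO_ApcKO, ApcKO and WT), Grem1 0.04, Rspo3 0.09 and Ackr4 -0.10. Dpp4 was dim: its mean over all arrays, 4.80, lay below the brightest antigenomic probe set of every array (5.51 or more). The other 17 relations of the 6 chemokines with epithelial, leukocyte and CD34-positive marker means did not pass by either coefficient.

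After that result was seen, the mean of 7 markers of subepithelial PDGFRA-high fibroblasts was tried as well. Its tests were adjusted over 6 values alone, without the 18 marker relations tested before, so that adjustment is lenient. Cxcl14 was higher on arrays where this marker mean was higher (r = 0.56, permutation p = 0.00424, adjusted over 6 values p = 0.0254). Its rho was 0.67 (permutation test, adjusted p = 0.00258). Its r was positive within IhhKO_ApcKO (0.69), ApcKO (0.80) and WT arrays (0.77). The exact permutation p, not adjusted, were 0.0418, 0.0173 and 0.0452 at 9, 8 and 7 arrays. Over all genotypes r was 0.63 without the 2 farthest arrays and 0.51 without B9. Bmp5, a bone morphogenetic protein, had r = 0.56 with Cxcl14, and 0.84, 0.70 and 0.66 within IhhKO_ApcKO, ApcKO and WT. Nrg1, a growth factor, had 0.63 over all arrays, and 0.60, 0.09 and 0.60 within the genotypes in that order. Foxl1, a Hedgehog-responsive transcription factor, had -0.18 over all arrays but 0.48, 0.42 and 0.17 within the genotypes. The rest of the list, Sox6, Bmp7, Wnt5a and F3, had 0.46, 0.35, 0.26 and 0.17 over all arrays. In the same order these were 0.57, 0.28, 0.28 and 0.19 within IhhKO_ApcKO arrays. They were 0.66, 0.65, 0.64 and 0.66 within ApcKO and 0.71, 0.74, 0.79 and 0.88 within WT arrays. Nrg1 rose in IhhKO_ApcKO against WT arrays (0.90, limma adjusted p = 0.0338). The marker mean as a whole was 7.73 in IhhKO_ApcKO, 7.79 in ApcKO and 7.68 in WT arrays, so it did not follow the order of the Cxcl14 means. Over those 6 values alone, Cxcl12 passed with Pearson's r (0.49, permutation test, adjusted p = 0.0490) but not with rho (0.38, adjusted p = 0.203). Cxcl12 was at r = 0.37 without the 2 farthest arrays. Its r was 0.06 within IhhKO_ApcKO, 0.81 within ApcKO and 0.85 within WT arrays (exact permutation p = 0.885, 0.0169 and 0.00972, not adjusted).

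**Figure D4:**
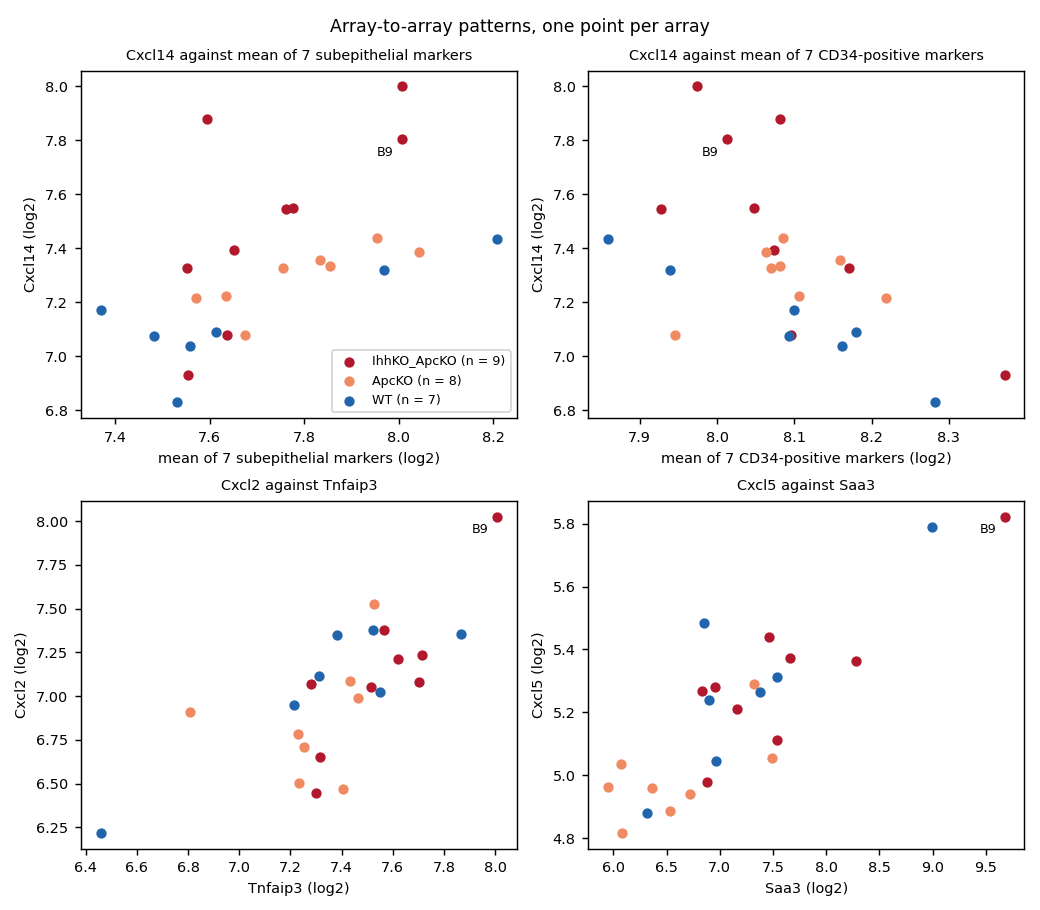
Each point is 1 array, coloured by genotype, with log2 values on both axes: Cxcl14 against the mean of 7 subepithelial markers (r = 0.56) and of 7 CD34-positive markers (r = -0.56), Cxcl2 against Tnfaip3 (r = 0.73) and Cxcl5 against Saa3 (r = 0.85). B9 lies at the top right for Cxcl2 and Cxcl5, and Cxcl14 climbs with the subepithelial mean in all 3 genotypes.

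Hedgehog output within a genotype was set against each chemokine, using the mean of Gli1, Ptch1 and Hhip; none of the 18 relations passed after adjustment (exact permutation tests). Cxcl14 was positive in each genotype, with r = 0.59 in IhhKO_ApcKO, 0.55 in ApcKO and 0.72 in WT arrays (adjusted p = 0.219, 0.259 and 0.208). Within ApcKO, Cxcl5 had r = -0.83 (adjusted p = 0.180), which was -0.64 without the arrays B4 and B8. Its r was 0.54 within IhhKO_ApcKO arrays but -0.71 without B9, and -0.46 within WT arrays but 0.35 without A5 and A6. Cxcl2 had r = 0.79 within IhhKO_ApcKO arrays, 0.37 without B9, and 0.88 without both B9 and C9.

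The other ligands of the family, 9 of 9 measured, gave 0 called in any comparison. At most 0.0813% of all genes were called in a comparison, so 0 called says little about this list or those below. Cxcl13, which attracts B cells, averaged 9.33 in IhhKO_ApcKO and 8.64 in ApcKO arrays (difference 0.70, limma adjusted p = 0.764), with 8 of 9 arrays above the ApcKO mean. In that comparison Cxcl9 stood at 0.41 and Cxcl15 at 0.07. Cxcl9 and Cxcl10, interferon-induced ligands of Cxcr3, were lower in ApcKO than in WT arrays, by -0.66 and -0.41 (limma adjusted p = 0.97 for both), as was Cxcl17 by -0.15. Against WT, 8 of 9 other ligands were lower in ApcKO, with a median of -0.08, where 18648 of 30748 genes were lower and the median was -0.02. That count includes Cxcl11, Cxcl15 and Ppbp, which read at most 4.28, 4.30 and 5.15. Those levels lay below the brightest antigenomic probe set of every array (5.51 or more). In IhhKO_ApcKO against WT, Cxcl3, another neutrophil attractant, had the smallest p of the list (-0.12, limma adjusted p = 0.584), before Cxcl17 at -0.12 and Cxcl10 at -0.33.

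Receptors and scavengers, 8 of 8 measured, gave 0 called, where at most 0.0813% of all genes were called in a comparison. Among the scavengers, Ackr1 averaged 8.95 in IhhKO_ApcKO, 8.83 in ApcKO and 9.0 in WT arrays, and Ackr3 7.97, 8.05 and 8.07 in that order. Cxcr2, the neutrophil receptor of Cxcl1, Cxcl2 and Cxcl5, averaged 4.87, 4.88 and 4.93, and Cxcr6, the receptor of Cxcl16, 4.11, 4.05 and 4.19. Cxcr4, the receptor of Cxcl12, averaged 4.98, 4.92 and 4.82. These 3 receptors read at most 5.10 (Cxcr2), 4.55 (Cxcr6) and 5.18 (Cxcr4) on any array, below the brightest antigenomic probe set of every array (5.51 or more). The smallest p of the list belonged to Ackr1 (0.11), Cxcr1 (0.07) and Cxcr3 (0.07) in IhhKO_ApcKO minus ApcKO, to Ackr1 (-0.16), Cxcr3 (-0.09) and Cxcr6 (-0.14) in ApcKO minus WT, and to Cxcr4 (0.16), Cxcr2 (-0.06) and Cxcr1 (0.06) in IhhKO_ApcKO minus WT. Enzymes that trim or shed CXC ligands, 6 of 6 measured, also gave 0 called. Mmp14, a membrane-bound matrix protease, stood highest among their differences for IhhKO_ApcKO, at 0.17 against both ApcKO (limma adjusted p = 0.998) and WT (0.686), and the shedding enzyme Adam17 at -0.09 and -0.05. The gelatinase Mmp9 stood at 0.05 and -0.07 in these comparisons. In ApcKO minus WT, Mmp9 was at -0.12, Adam17 at 0.04 and the gelatinase Mmp2 at 0.01.

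Interleukin-1, tumour necrosis factor and interleukin-17 receptors and NF-kB genes, 18 of 19 measured, gave 0 called in each comparison. The share called over all genes was at most 0.0813%. The list mixes receptors and NF-kB subunits with Tnfaip3, an inhibitor of NF-kB signalling, and with cytokine genes such as Il6 and Csf3. Its counts are thus not a measure of signalling upstream of the chemokines. In IhhKO_ApcKO against ApcKO, 16 of 18 were higher, with a median of 0.08, where 17414 of 30748 genes were higher and the median was 0.01. Tnfaip3 stood at 0.26, the interleukin-1 receptor Il1r1 at 0.27 and the tumour necrosis factor receptor Tnfrsf1a at 0.10 (limma adjusted p = 0.9999 for each). In ApcKO against WT, 7 of 18 were higher and 11 lower, with a median of -0.02, and Zfp36 (0.09), Relb (0.07) and Myd88 (0.07) had the smallest p. In IhhKO_ApcKO against WT, 15 of 18 were higher, where 13815 of 30748 genes were. The NF-kB subunit Relb had the smallest p of the list there (0.13, limma adjusted p = 0.563), with larger differences in Il1r1 (0.30) and Tnfaip3 (0.23). Neutrophil markers, 5 of 5 measured, averaged 4.65 in IhhKO_ApcKO, 4.57 in ApcKO and 4.53 in WT arrays and likewise gave 0 called, in cells sorted as negative for CD45.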

How the data were processed

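RNA of sorted colon fibroblasts was hybridized to 24 Affymetrix MTA 1.0 arrays. The authors deposited log2 values made with RMA, per the submitters' processing notes. The RMA version and the genome build were not given in the sources used here. Of 72688 probe sets, 6732 controls were left out. Of the 65956 transcript clusters left, 31221 had 1 gene symbol, 1529 several (not named) and 33206 none. The brightest probe set stood for each of 364 genes with several, giving 30748 genes, with 827 symbols updated by Entrez identifier. No dim gene was removed.

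Genotypes, taken from sample titles, were compared with limma 3.58.1 in R 4.3.3 (lmFit, eBayes without trend, not robust), all 24 arrays in 1 model, Benjamini-Hochberg over all genes, threshold 0.05. Correlations used two-sided permutation tests (100000 resamples over 24 arrays, exact within genotypes) in Python 3.11.15 with scipy 1.17.1. The code was tested on simulated data. Array medians were 4.96 to 5.14, and 0 array pairs were identical. Precision is limited by how many arrays there are. The sex marker Xist ran from 4.36 to 11.44 over all arrays. It averaged 8.87 in IhhKO_ApcKO, 7.02 in ApcKO and 7.51 in WT arrays, so sex may be uneven over the genotypes. Alternatives covered array scaling, a dim-gene filter, a background floor, probe set averaging, the variance model, array weights, the arrays in the fit, the code letter, epithelial, leukocyte and Xist covariates, and each array left out.

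The chemokines and all gene lists were chosen with earlier results of these data known. Named were all 6 chemokines, the 3 members of each list with the smallest p in a comparison, and the 3 genes most correlated with each chemokine; other list members shown by level (such as receptors and scavengers) were chosen after their values were seen.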

Additional observations from a re-analysis of the deposited data

Results flagged for a closer look

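Of the 18 groups of 1 chemokine in 1 genotype, 1 held an array far from the rest. Cxcl2 read 6.22 on WT A4, and the gap to the next WT array was 0.631 of the whole WT range. On the same array Tnfaip3 was at 6.46, the lowest of all 24 arrays. This check marks about 1 in 20 groups by chance. The array labelled B9, the highest IhhKO_ApcKO array for Cxcl2 at 8.03, had a gap of 0.412 of its group's range, and ApcKO B8, at 7.52, a gap of 0.415; neither was marked.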

How the results depend on the processing

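For the 6 chemokines in 3 comparisons, 501 alternative values were computed; 0 passed the threshold (lowest adjusted p 0.0563) and 21 turned sign, each for a difference smaller than its gene's residual SD. The sign of the Cxcl5 difference between IhhKO_ApcKO and ApcKO (0.26 to 0.84) and of the Cxcl14 difference between IhhKO_ApcKO and WT (0.30 to 0.44) held under every alternative that gave a value. Cxcl5 lies under the median gene and has no value under that filter.

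The code letter of the arrays runs almost with genotype, and a block on it rests on A9 and B9 alone. It turned ApcKO minus WT to -0.0107 for Cxcl12 and -0.0571 for Cxcl14, and IhhKO_ApcKO minus WT to 0.0117 for Cxcl1 and -0.117 for Cxcl12. It also put Cxcl2 in IhhKO_ApcKO at 1.14 against ApcKO and 0.869 against WT, which were 0.255 and 0.0714 without it. For IhhKO_ApcKO minus WT, array weights gave Cxcl5 -0.0380, and a leukocyte covariate gave Cxcl2 -0.0439 and Cxcl5 -0.0149. Leaving out 1 array at a time gave, for IhhKO_ApcKO minus WT, -0.122 to 0.00552 for Cxcl1, -0.0681 to 0.156 for Cxcl2, -0.0392 to 0.112 for Cxcl5, -0.0238 to 0.0278 for Cxcl12 and -0.0562 to 0.00178 for Cxcl16.

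Counts over all genes moved more. IhhKO_ApcKO minus ApcKO called 14 genes, but 8 with array medians centred, 23 among genes at or above the median gene, 65 with array weights, 51 with the letter block and 8 to 41 with 1 array left out (41 without B9, 25 without A9, 9 without B4, B5, C1 or C7, 8 without C6). ApcKO minus WT called 0, but 113 with the letter block. IhhKO_ApcKO minus WT called 25, but 16 centred, 45 weighted, 7 with only the 2 genotypes in the fit, 82 with the letter block and 12 to 67 with 1 array left out (67 without B9). Of the marker correlations 0 passed, but 1 with Spearman's rho, 1 within WT, and 2 of 6 with the subepithelial markers chosen after seeing the data; Cxcl14 with CD34-positive markers was 0.31 within ApcKO. The cause of these shifts was not tested. No paired analysis was possible because the genotypes share no replicate codes.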
